A study of Mus musculus with 12 samples.

Results

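Interferon-stimulated genes encode the antiviral proteins, sensors and immune GTPases that cells raise in response to interferon. A list of 39 such genes was followed by gene symbol through 12 RNA-Seq libraries of mouse CD4 T blast cells (TB). All 39 were found among the 24439 gene names of the files and passed the filter of more than 1 TPM (a level corrected for transcript length and for the total of the library) in at least 1 library, as 12442 names did. The CD4 T cells came from the spleen of C57BL/6 C42 mice, which carry a fragment of human DNA with the IL3 and CSF2 genes. They were stimulated with 2 µg/ml concanavalin A (ConA) for 40 h and then grown with IL-2 at 50 U/ml, which lasted 2 days by the sample labels and 30 h by the methods. All 4 groups, with 3 libraries each, share that history. TB IL-2 cells stayed in IL-2, TB IL-2nil cells spent a further 16 h without it, and TB+ IL-2 and TB+ IL-2nil cells were TB IL-2 and TB IL-2nil cells treated for 2 h with 20 ng/ml PMA and 2 µM calcium ionophore A23187 (PMA/I), a treatment that imitates signals from the T cell receptor.

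Type I interferons act through the receptor chains Ifnar1 and Ifnar2 and the kinases Jak1 and Tyk2 to form ISGF3, a complex that holds Stat2 and Irf9. ISGF3 binds the interferon-stimulated response element (ISRE) in the promoters of its target genes, whereas interferon-γ acts through GAS elements and through Irf1. Many of the induced proteins, such as Isg15, Usp18 and Irf7, feed back on the pathway, and others bind viral RNA or guard membranes against intracellular parasites. T blasts make interferon-γ themselves when restimulated, and IL-2 signals through Jak1, Jak3 and Stat5, a set that partly overlaps with that of the interferons.

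In the grouping, 2 libraries went against their labels: the library labelled TB IL-2nil replicate 3 and the library labelled TB+ IL-2 replicate 3 were each placed in the other's group. The study's table of differentially expressed genes lists them that way. After quantile normalization, all 12 columns of that table were met within 0.1% for each of 1381 genes by 1 library alone, and these 2 libraries were met by the column of the other label. With the labels as given, 3 of the 56 calls reported below would have passed. With this placement, the summed level of 5 genes of the PMA/I response (Il2, Fos, Egr1, Egr2 and Nr4a1) was 12.2 to 98.5 TPM over the 6 unstimulated libraries and 7260 to 17260 TPM over the 6 stimulated ones. Throughout, replicate 3 of TB IL-2nil and of TB+ IL-2 refer to the libraries so placed, and the values of members past 3-fold, and of calls that depend on this pair, are also given without it. Markers of CD4 T cells (5 of 6 listed genes in the files) were lower with IL-2. They summed to 1134 to 1200 TPM in TB IL-2, 1848 to 2044 TPM in TB IL-2nil, 1068 to 1177 TPM in TB+ IL-2 and 1422 to 1702 TPM in TB+ IL-2nil. Those of dendritic cells summed to 0.527 to 0.98, 1.24 to 2.63, 1.2 to 1.9 and 3.9 to 6.6 TPM in the same order of groups. The part of both lists in the results below was not tested. Markers of NK cells summed to no more than 0.303 TPM. The 5 measured B cell markers, Cd79a among them, were low but moved with the groups, at 24.3 to 30.3 TPM in TB IL-2nil, 6.04 to 11.0 TPM in TB IL-2, 5.66 to 13.3 TPM in TB+ IL-2nil and 2.36 to 3.69 TPM in TB+ IL-2, and their part in the results below was not tested. In bulk RNA, fewer cells that express a gene and less of its RNA per cell cannot be told apart. No source says that the replicates were separate cultures or mice, so that P-values may measure technical spread alone.

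The promoters of the 4 members with an ISRE match and the largest differences after PMA/I are shown first, as the sequence in which that match lies. They are RefSeq windows from 250 bases before to 50 after the start site (GRCm38.p6, each read along the gene), with every match to the ISRE letters GAAANNGAA, on either strand, in capitals. They are Gbp3 at chr3:142559794-142560093 and Gbp2 at chr3:142620413-142620712, both on the plus strand, and Ifih1 at chr2:62646206-62646505 and Irgm1 at chr11:48871371-48871670, both on the minus strand.
Gbp3: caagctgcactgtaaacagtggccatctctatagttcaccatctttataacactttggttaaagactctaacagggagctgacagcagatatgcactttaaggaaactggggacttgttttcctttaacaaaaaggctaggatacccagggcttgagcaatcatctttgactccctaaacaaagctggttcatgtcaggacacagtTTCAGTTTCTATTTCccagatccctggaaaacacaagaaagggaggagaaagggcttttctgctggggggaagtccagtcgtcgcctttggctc
Gbp2: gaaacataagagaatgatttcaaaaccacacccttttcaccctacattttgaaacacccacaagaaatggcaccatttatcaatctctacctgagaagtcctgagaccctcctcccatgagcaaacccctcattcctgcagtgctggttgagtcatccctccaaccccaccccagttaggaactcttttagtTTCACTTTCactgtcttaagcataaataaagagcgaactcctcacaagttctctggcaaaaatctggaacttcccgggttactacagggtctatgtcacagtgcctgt
Ifih1: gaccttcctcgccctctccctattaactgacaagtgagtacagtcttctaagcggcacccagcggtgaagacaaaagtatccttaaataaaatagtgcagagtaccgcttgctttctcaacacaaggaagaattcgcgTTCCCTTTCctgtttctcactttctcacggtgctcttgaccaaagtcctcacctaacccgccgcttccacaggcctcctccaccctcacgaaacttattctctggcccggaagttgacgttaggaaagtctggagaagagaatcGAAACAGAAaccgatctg
Irgm1: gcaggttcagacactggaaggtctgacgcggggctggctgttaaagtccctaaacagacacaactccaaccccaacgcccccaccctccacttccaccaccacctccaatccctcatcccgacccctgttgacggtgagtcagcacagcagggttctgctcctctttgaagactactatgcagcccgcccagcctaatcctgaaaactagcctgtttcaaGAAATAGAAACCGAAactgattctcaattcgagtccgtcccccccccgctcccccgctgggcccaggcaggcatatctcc
Gbp3 and Irgm1 each carried 2 overlapping matches, which start 44 and 38 bases (Gbp3) and 30 and 24 bases (Irgm1) before the start site. Gbp2 had 1 match, 58 bases before it. Ifih1 had 1 match 112 bases before the start site and another at base 33 after it. RefSeq windows were found by symbol for 29 members, and 16 of them (55.2%) held an ISRE match in at least 1 window, against 8.56% of all 32851 windows and 9.76% of the 27025 genes with one. The GAS letters TTCNNNGAA were found in 9 of the 29 (31.0%, against 9.55% of all genes) and the AP-1 letters TGANTCA in 7 (24.1%, against 8.97%). Gbp2 and Irgm1 were among these 7, with 1 AP-1 match each, which is not marked above. ISRE matches were not limited to members that rose with PMA/I. Stat2, Ddx58, Eif2ak2 and Trim30a, which fell, held them too, and Isg20, which rose, held none. A match describes the letters in the window and does not show binding.

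**Figure D1:**
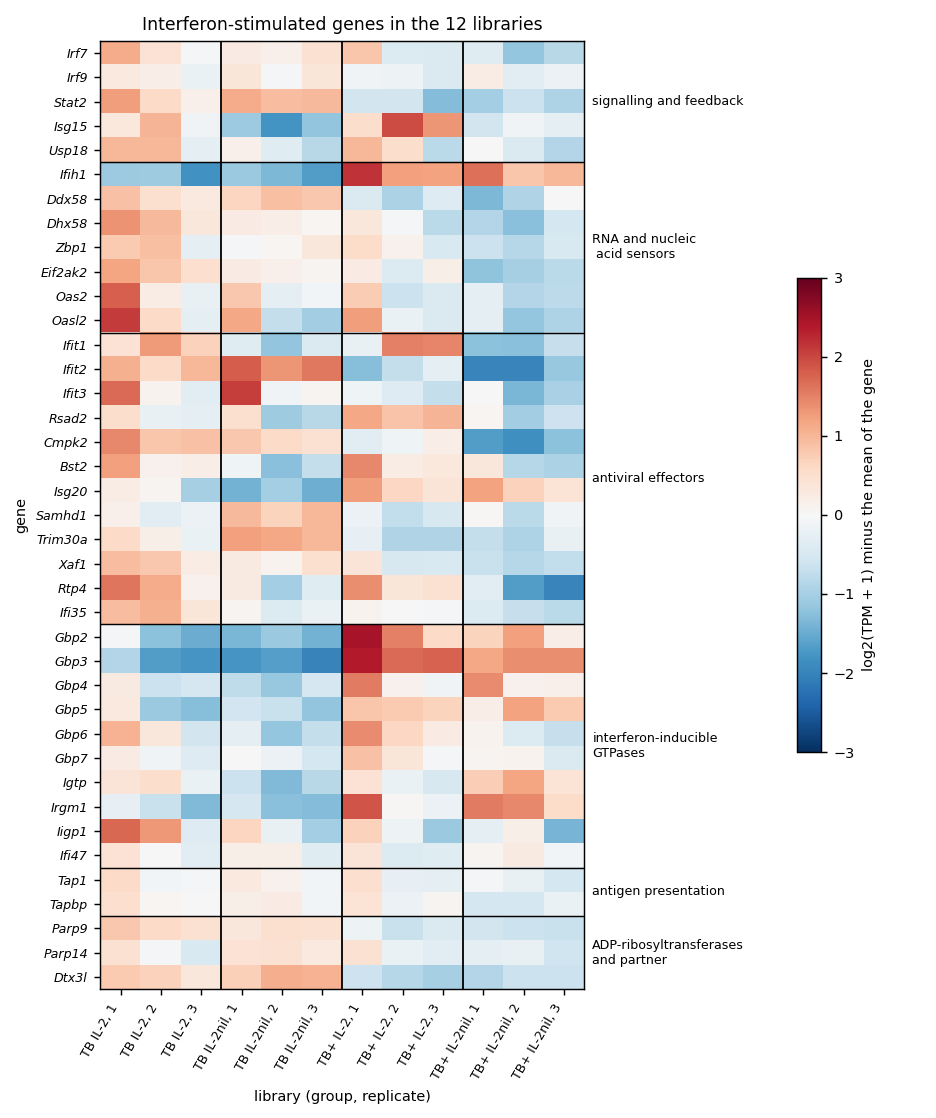
Level of each member (rows, by role) in each library (columns) as log2(TPM + 1) minus the mean of that gene over the 12 libraries, from -3 (blue) to 3 (red). The rows of Gbp2, Gbp3 and Ifih1 turn red to the right, in the 6 libraries with PMA/I, while Ifit2, Stat2 and Dtx3l turn blue.

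PMA/I moved members of the list both ways, in shares near those of all genes. After stimulation in the presence of IL-2, 5 of the 39 genes were higher and 11 lower at an adjusted P under 0.05 (limma over all 12442 genes with Benjamini-Hochberg adjustment, as are all adjusted P-values here), where 11.8% of all genes were higher and 23.3% lower. More than 3-fold as well, 3 were higher and 1 lower, against 3.94% and 3.1% of all genes. After stimulation of cells kept without IL-2, 9 were higher and 14 lower (20.1% and 41.1% of all genes), and 6 and 5 of these passed 3-fold (7.78% and 10.7%). The median log2 difference of the list was -0.33 with IL-2 and -0.46 without, and that of all genes -0.22 and -0.38. Single libraries moved the first of these list medians, to -0.10 without TB IL-2 replicate 1, -0.19 without TB IL-2 replicate 2, -0.13 without TB+ IL-2 replicate 3 and -0.55 without either TB IL-2 replicate 3 or TB+ IL-2 replicate 1. The second was -0.30 without TB IL-2nil replicate 1. Without the pair of libraries they were -0.13 and -0.64. By role, of the 10 interferon-inducible GTPases 3 were higher with IL-2 and 6 without it, and none passed the adjusted P downwards. Of the 12 antiviral effectors 5 were lower and 1 higher in either setting, and of the 7 sensors 3 were lower and 1 higher. The 2 comparisons share no library. All 5 members that were higher with IL-2 were among the 9 that were higher without it, and 10 of the 11 that were lower were among the 14, as were 88.5% and 90.3% of all genes called higher and lower with IL-2. Whatever the P-value, all 3 stimulated libraries were above all 3 unstimulated ones for 7 members with IL-2 and 9 without (16.6% and 21.8% of all genes). They were all below for 9 and 16 members (35.1% and 42.3% of all genes).

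Gbp3, Gbp2 and the other guanylate-binding proteins are large GTPases that gather on pathogen membranes. Gbp3 stood at 28.3, 15.8 and 14.6 TPM in replicates 1, 2 and 3 of TB IL-2 and at 14.6, 16.1 and 12.4 TPM in TB IL-2nil. After PMA/I it reached 276, 172 and 180.1 TPM in TB+ IL-2 and 119, 139 and 139 TPM in TB+ IL-2nil. The lowest stimulated library was above the highest unstimulated one, and this was the largest rise of the list in both settings. On the log2(TPM + 1) scale, which is used for all differences and understates those of low genes, Gbp3 rose by 3.38 ± 0.26 (SE; 10.4-fold, adjusted P = 5.7e-06) with IL-2 and by 3.12 ± 0.26 (8.71-fold, adjusted P = 4.1e-06) without it. Leaving out the 2 libraries whose group differs from their label gave 3.47 (adjusted P = 9.4e-05) and 3.02 (adjusted P = 8.7e-05).

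Gbp2 is the next member along the cluster, with 1 other coding gene between it and Gbp3, and its levels were 135, 59 and 49.4 TPM in TB IL-2 and 53.9, 64.1 and 52.4 TPM in TB IL-2nil. With PMA/I they were 789.7, 406 and 212 TPM in TB+ IL-2 and 224, 331 and 162 TPM in TB+ IL-2nil. Stimulated and unstimulated groups did not overlap, while the 2 stimulated groups did, with TB+ IL-2 replicate 1 far above all others. The rise was 2.46 ± 0.47 (5.5-fold, adjusted P = 0.00255) with IL-2 and 2.0 ± 0.47 (4.0-fold, adjusted P = 0.00364) without, and 2.93 (adjusted P = 0.00223) and 1.94 (adjusted P = 0.00693) without the pair of libraries. Gbp5, a member that is known to promote inflammasome assembly, rose by 1.47 ± 0.39 (adjusted P = 0.0128) and 1.54 ± 0.39 (adjusted P = 0.00496). The first of these calls was lost without TB IL-2 replicate 3, at 1.18 (adjusted P = 0.0538).

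The chromosome 3 cluster, from Gbp5 at base 142159864 to the end of Gbp2 at 142300972 (mm9), holds the members Gbp5, Gbp7, Gbp3 and Gbp2 in this order, all on the plus strand. Their differences with IL-2 were 1.47, 0.49, 3.38 and 2.46, and without it 1.54, 0.16, 3.12 and 2.0. Gbp7, which sits between Gbp5 and Gbp3, did not pass the adjusted P in either (adjusted P = 0.178 and 0.61), with 50.2 ± 11.5 TPM in TB IL-2 and 71.9 ± 23.1 TPM in TB+ IL-2 (mean ± SD, n = 3). With the replicate number as a block its rise with IL-2 did pass (adjusted P = 0.0143). Of the 2 members of the chromosome 5 cluster, Gbp4 was called without IL-2 alone (1.37 ± 0.47, adjusted P = 0.0249), and Gbp6 in neither (0.49 and 0.37). The call of Gbp4 was lost without TB IL-2nil replicate 1, at 1.38 (adjusted P = 0.0502), TB IL-2nil replicate 2, at 1.2 (adjusted P = 0.0795), and TB+ IL-2nil replicate 1, at 0.94 (adjusted P = 0.106), and with the block it also passed with IL-2 (adjusted P = 0.0451). These genes are close paralogs, so that reads could have been split between them in the authors' quantification and the values of single members are uncertain.

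Ifih1 encodes MDA5, a cytoplasmic sensor of long double-stranded RNA. It was measured at 7.3, 7.47 and 3.97 TPM in TB IL-2 and 7.14, 5.94 and 4.54 TPM in TB IL-2nil, and after PMA/I at 78.8, 40.5 and 39.3 TPM in TB+ IL-2 and 54.7, 30.5 and 33.9 TPM in TB+ IL-2nil. The stimulated and unstimulated groups did not overlap. The rise was 2.86 ± 0.32 (7.26-fold, adjusted P = 0.000105) with IL-2 and 2.54 ± 0.32 (5.8-fold, adjusted P = 6.5e-05) without, and 3.03 (adjusted P = 0.00054) and 2.38 (adjusted P = 0.000669) without the pair of libraries. The other members of its helicase family, which sense or modulate the sensing of viral RNA, went the other way. Ddx58 (RIG-I) fell in both, with differences of -1.14 ± 0.31 (adjusted P = 0.0151) and -1.54 ± 0.31 (adjusted P = 0.00127), and so did Dhx58 (LGP2), at -1.05 in each (adjusted P = 0.0264 and 0.0149). In TPM, Ddx58 went from 35 ± 7.89 TPM in TB IL-2 to 15.3 ± 3.3 TPM in TB+ IL-2 and Dhx58 from 8.39 ± 3.1 TPM to 3.6 ± 1.74 TPM (mean ± SD, n = 3). The Ddx58 call with IL-2 did not hold without TB IL-2 replicate 1, at -0.97 (adjusted P = 0.0607), or TB+ IL-2 replicate 2, at -0.96 (adjusted P = 0.0638). That of Dhx58 with IL-2 was lost without any 1 of TB IL-2 replicates 1 and 2 and TB+ IL-2 replicates 2 and 3, with adjusted P-values up to 0.102, and without the pair of libraries, at -0.72 (adjusted P = 0.11). In cells without IL-2 it was lost when TB+ IL-2nil replicate 2 was left out, at -0.87 (adjusted P = 0.0603). Quantile normalization lost it there too, at -0.50 (adjusted P = 0.203), as did scaling by the median of ratios, at -0.75 (adjusted P = 0.0617).

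**Figure D2:**
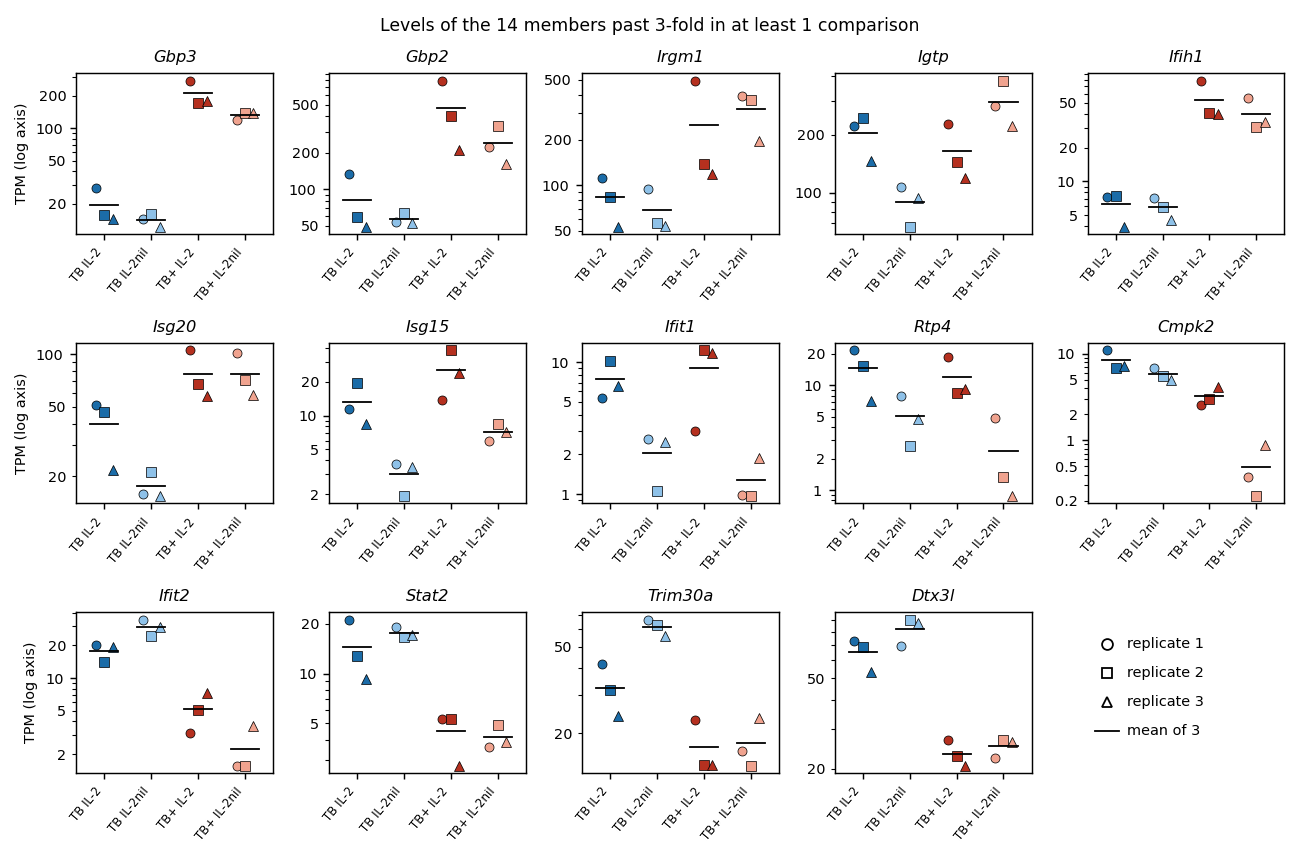
TPM (log axis) of the 14 members past 3-fold with an adjusted P under 0.05 in at least 1 comparison, with 1 symbol for each library, by replicate, and a line at the mean of 3. Gbp3, Gbp2 and Ifih1 lie higher in both stimulated groups than in either unstimulated one, Ifit2, Stat2 and Dtx3l lower, and Isg15 and Ifit1 higher in the groups with IL-2.

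Irgm1 and Igtp (Irgm3) are immunity-related GTPases, which control autophagy and the membranes around intracellular parasites. Irgm1 stood at 113, 83.4 and 53.2 TPM in TB IL-2 and 94.7, 55.8 and 53.7 TPM in TB IL-2nil, and at 496, 138 and 119.5 TPM in TB+ IL-2 and 394, 367 and 197 TPM in TB+ IL-2nil. In TB+ IL-2, replicate 1 was far above the other libraries of its group, which lay just above the highest TB IL-2 library. Irgm1 rose by 2.2 ± 0.51 (4.59-fold, adjusted P = 0.00317) without IL-2, and by 2.05 (adjusted P = 0.012) without the pair of libraries. With IL-2 its difference was 1.33 ± 0.51 (adjusted P = 0.0628), which passed with the replicate number as a block (adjusted P = 0.00531) and without the pair of libraries, at 1.71 (adjusted P = 0.043). The 2 differences were not shown to differ (interaction -0.86 ± 0.72, adjusted P = 0.509).

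Igtp was the one member to pass in the interaction, the test of whether the response to PMA/I differed with IL-2. Its levels were 221, 244 and 147 TPM in TB IL-2 and 107, 67 and 93.7 TPM in TB IL-2nil, where the 3 libraries with IL-2 were all above those without. After PMA/I they were 227, 145 and 119.6 TPM in TB+ IL-2 and 282, 381 and 222 TPM in TB+ IL-2nil, with the order of the groups turned round except that TB+ IL-2 replicate 1 was just above TB+ IL-2nil replicate 3. PMA/I raised Igtp by 1.7 ± 0.30 (3.25-fold, adjusted P = 0.000549) in cells without IL-2, or 1.74 (adjusted P = 0.0023) without the pair of libraries, and the difference with IL-2 was -0.33 ± 0.30 (adjusted P = 0.422). The interaction, the difference with IL-2 minus that without, was -2.03 ± 0.42 (adjusted P = 0.0295). Among all genes, 1.57% passed the adjusted P upwards and 2.66% downwards, and in the list 0 and 1. This one call rests on single libraries. It was lost without TB IL-2 replicate 2, at -1.89 (adjusted P = 0.0792), TB IL-2nil replicate 2, at -1.84 (adjusted P = 0.074), or TB IL-2nil replicate 3, at -2.08 (adjusted P = 0.0507). It was also lost without TB+ IL-2 replicate 2, at -1.97 (adjusted P = 0.0686), or replicate 3, at -1.83 (adjusted P = 0.0678), and without TB+ IL-2nil replicate 1, at -2.05 (adjusted P = 0.069), or replicate 2, at -1.83 (adjusted P = 0.0638). Without the pair of libraries it was -1.87 (adjusted P = 0.104), and with the block the adjusted P was 0.0141. With the block, Ifit2 (1.62, adjusted P = 0.0234) and Samhd1 (0.83, adjusted P = 0.034) passed as well, against 0.0543 and 0.177 without it, which makes 3 calls in place of 1. Without TB IL-2 replicate 1 there were 2 calls and without TB+ IL-2nil replicate 3 there were 3.

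The remaining GTPases on the list, Iigp1 and Ifi47, passed in none of the comparisons. Ifi47 (Irg47) ranged from 134 to 239 TPM over the 12 libraries. Iigp1, a GTPase that disrupts parasite vacuoles, went from 53.8 ± 32.5 TPM in TB IL-2 to 24 ± 14.7 TPM in TB+ IL-2, and its difference passed with the block (-1.07, adjusted P = 0.0078, and 0.227 without it).

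**Figure D3:**
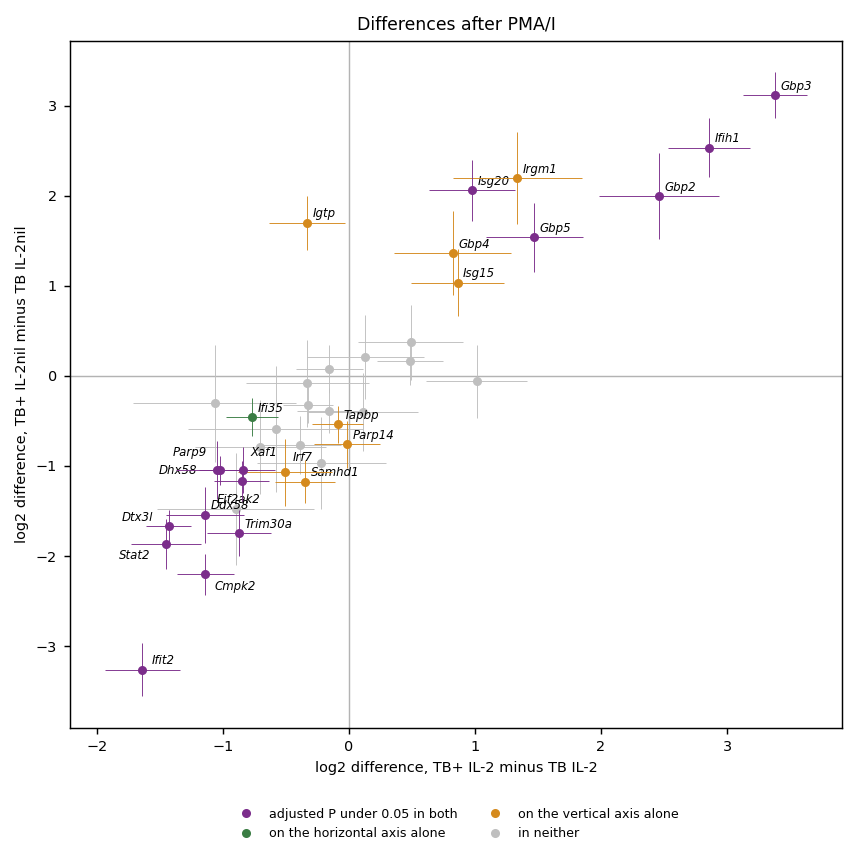
Log2 difference of each of the 39 members after PMA/I in cells with IL-2 (horizontal) and without it (vertical), with bars of 1 SE; colour shows in which comparison the adjusted P was under 0.05. Gbp3, Ifih1 and Gbp2 stand at the upper right and Ifit2 at the lower left in both, and Igtp stands apart at -0.33 and 1.70.

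Among the antiviral effectors, Ifit2, which binds viral RNA and has been linked to apoptosis, showed the largest fall. It was at 20.1, 14.1 and 19.2 TPM in TB IL-2 and 34.5, 24.1 and 29.3 TPM in TB IL-2nil, and after PMA/I at 3.16, 5.11 and 7.37 TPM in TB+ IL-2 and 1.57, 1.57 and 3.62 TPM in TB+ IL-2nil. All 6 stimulated libraries were below all 6 unstimulated ones. Ifit2 fell, with differences of -1.64 ± 0.30 (3.12-fold lower, adjusted P = 0.00174) with IL-2 and -3.26 ± 0.30 (9.6-fold lower, adjusted P = 7.7e-06) without. Without the pair of libraries the differences were -1.88 (adjusted P = 0.00292) and -3.26 (adjusted P = 8.2e-05). The difference between the 2 falls was 1.62 ± 0.42 and missed the threshold (adjusted P = 0.0543).

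Cmpk2, a mitochondrial nucleotide kinase, lies head to head with the antiviral enzyme gene Rsad2 on chromosome 12, with 12751 bases between them (mm9). Its levels were 11, 6.87 and 7.13 TPM in TB IL-2 and 6.78, 5.55 and 5.01 TPM in TB IL-2nil. After PMA/I they were 2.53, 3.01 and 4.09 TPM in TB+ IL-2 and 0.373, 0.225 and 0.873 TPM in TB+ IL-2nil, the latter all under 1 TPM and below every other library. Cmpk2 fell, with differences of -1.14 ± 0.23 (adjusted P = 0.0031) with IL-2 and -2.2 ± 0.23 (4.6-fold lower, adjusted P = 1.6e-05) without, and of -1.28 (adjusted P = 0.00594) and -2.28 (adjusted P = 0.000144) without the pair of libraries. Its neighbour Rsad2 (viperin) stood at 2.63, 1.17 and 1.06 TPM in TB IL-2 and 4.69, 3.58 and 4.12 TPM in TB+ IL-2 (1.01 ± 0.40, adjusted P = 0.0703). That difference passed with the block (adjusted P = 0.00548), and without IL-2 the difference was -0.06 ± 0.40 (adjusted P = 0.907).

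Trim30a, a ubiquitin ligase that restrains NF-κB signalling, was at 41.5, 31.6 and 23.9 TPM in TB IL-2 and 66.6, 62.6 and 55.9 TPM in TB IL-2nil, and at 23.1, 14.3 and 14.3 TPM in TB+ IL-2 and 16.5, 14.2 and 23.4 TPM in TB+ IL-2nil. The stimulated libraries were all below the unstimulated ones. It fell, with a difference of -1.75 ± 0.25 (3.36-fold lower, adjusted P = 0.00015) without IL-2, and of -1.82 (adjusted P = 0.000995) without the pair of libraries. With IL-2 the difference was -0.87 ± 0.25 (adjusted P = 0.0212), a call lost without the pair of libraries, at -0.76 (adjusted P = 0.0839). It was also lost without TB IL-2 replicate 1, at -0.68 (adjusted P = 0.0859), TB+ IL-2 replicate 2, at -0.76 (adjusted P = 0.0799), or TB+ IL-2 replicate 3, at -0.76 (adjusted P = 0.0677). Members of the Trim30 family are near-identical in part, and the value of Trim30a is uncertain to that extent.

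Isg20, an exonuclease that degrades single-stranded RNA, was the one effector called higher with PMA/I in the fit without the block. It stood at 51.2, 46.8 and 21.5 TPM in TB IL-2 and 15.8, 21.2 and 15.4 TPM in TB IL-2nil. After PMA/I it stood at 106, 67.5 and 57.7 TPM in TB+ IL-2 and 102, 71.4 and 58.3 TPM in TB+ IL-2nil, so that the stimulated groups overlapped each other and lay above both unstimulated ones. The rise without IL-2 was 2.06 ± 0.34 (4.17-fold, adjusted P = 0.000364), and 1.98 (adjusted P = 0.0027) without the pair of libraries. The rise with IL-2 was 0.98 ± 0.34 (adjusted P = 0.0454) and just passed: it was lost in 14 of the 24 alternatives, among them leaving out the pair of libraries, at 1.16 (adjusted P = 0.0521). Single libraries decided it too, with 0.60 (adjusted P = 0.166) without TB IL-2 replicate 3, 0.73 (adjusted P = 0.163) without TB+ IL-2 replicate 1 and 1.05 (adjusted P = 0.0802) without TB+ IL-2 replicate 2. Leaving out any replicate of TB IL-2nil, or TB+ IL-2nil replicate 2, gave adjusted P-values of 0.0539 to 0.0566.

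Of the other effectors, Samhd1, which depletes nucleotides and is the most abundant of them here, fell without IL-2 (difference -1.18 ± 0.24, adjusted P = 0.00144), from 449 ± 53.1 TPM to 203 ± 57.5 TPM (n = 3). Xaf1, a pro-apoptotic factor, fell in both settings (-0.84, adjusted P = 0.0254, and -1.05, adjusted P = 0.00425). Under quantile normalization both Xaf1 calls were lost, at -0.47 (adjusted P = 0.191) with IL-2 and -0.44 (adjusted P = 0.165) without. Ifi35, which modulates RNA sensing, fell with IL-2 (-0.77, adjusted P = 0.0149). The calls of Xaf1 and Ifi35 with IL-2 were both lost without the pair of libraries, at -0.70 (adjusted P = 0.0967) and -0.73 (adjusted P = 0.0577). That of Xaf1 was also lost without TB IL-2 replicate 1 or 2 or TB+ IL-2 replicate 2 or 3 (adjusted P = 0.0749 to 0.0989), and that of Ifi35 without TB IL-2 replicate 1 or 2 (adjusted P = 0.0548 and 0.056). Ifit1, Ifit3, Bst2, Rsad2 and Rtp4 passed in neither. With the block, Ifit3 was lower with IL-2 (-0.90, adjusted P = 0.0476) and without (-1.48, adjusted P = 0.00284), and so without IL-2 were Rtp4 (-0.96, adjusted P = 0.0103) and Ifi35 (-0.46, adjusted P = 0.0366).

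Stat2, the subunit of ISGF3 that brings the transactivation domain, fell with PMA/I. It was measured at 21.2, 12.7 and 9.25 TPM in TB IL-2 and 19.1, 16.7 and 17.2 TPM in TB IL-2nil, and at 5.32, 5.35 and 2.78 TPM in TB+ IL-2 and 3.61, 4.91 and 3.86 TPM in TB+ IL-2nil. Every stimulated library was below every unstimulated one, and the 2 stimulated groups overlapped. The differences were -1.45 ± 0.28 (adjusted P = 0.00253) with IL-2 and -1.87 ± 0.28 (3.65-fold lower, adjusted P = 0.000183) without, and the values without the pair of libraries were -1.2 (adjusted P = 0.0145) and -1.89 (adjusted P = 0.000733). Irf9, its partner in ISGF3, did not pass in either (-0.33 and -0.32; adjusted P = 0.221 and 0.179). Irf7, the factor that amplifies interferon production, fell without IL-2 (-1.07 ± 0.37, adjusted P = 0.0272). That call was lost without the pair of libraries, at -0.99 (adjusted P = 0.0766), and without TB IL-2nil replicate 1, at -1.09 (adjusted P = 0.0524), TB IL-2nil replicate 3, at -0.99 (adjusted P = 0.0747), TB+ IL-2nil replicate 2, at -0.88 (adjusted P = 0.0964), or TB+ IL-2nil replicate 3, at -1.05 (adjusted P = 0.0599). The Irf7 call was also lost under quantile normalization, at -0.59 (adjusted P = 0.191), and under scaling by the median of ratios, at -0.70 (adjusted P = 0.124). Usp18, which removes Isg15 from proteins and damps receptor signalling, stayed at 0.674 to 5.14 TPM in every library and passed nowhere without the block.

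Parp9, Parp14 and Dtx3l form a small group of ADP-ribosyltransferases and a partner ubiquitin ligase on chromosome 16, and Parp9 and Dtx3l, divergent genes, overlap at their 5' ends (mm9). The RNA kit keeps the strand, but whether the quantification used it is not given in the sources used here, so that reads in the overlap are uncertain. Dtx3l was at 72.8, 68.8 and 53.3 TPM in TB IL-2 and 69.2, 90.6 and 87.4 TPM in TB IL-2nil, and at 26.8, 22.7 and 20.7 TPM in TB+ IL-2 and 22.4, 26.7 and 26.4 TPM in TB+ IL-2nil. Both stimulated groups were tight and far below the others. Dtx3l fell, with differences of -1.43 ± 0.18 (adjusted P = 0.00017) with IL-2 and -1.67 ± 0.18 (3.18-fold lower, adjusted P = 1.8e-05) without, and of -1.35 (adjusted P = 0.00193) and -1.63 (adjusted P = 0.000278) without the pair of libraries. Parp9 fell too, at -1.03 (adjusted P = 0.000781) and -1.05 (adjusted P = 0.000218). Parp14 fell without IL-2 (-0.76, adjusted P = 0.0249) and differed by -0.02 ± 0.26 with it (adjusted P = 0.973). The Parp14 call was lost without TB IL-2nil replicate 1, at -0.74 (adjusted P = 0.0579), TB IL-2nil replicate 2, at -0.73 (adjusted P = 0.0624), and TB+ IL-2nil replicate 3, at -0.64 (adjusted P = 0.0799). Scaling by the median of ratios lost it too, at -0.37 (adjusted P = 0.243).

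The last sensors and the antigen presentation genes moved less. Eif2ak2 (PKR), the kinase that halts translation on double-stranded RNA, fell in both, at -0.85 (adjusted P = 0.0114) and -1.17 (adjusted P = 0.00079). The Eif2ak2 call with IL-2 was lost under quantile normalization, at -0.56 (adjusted P = 0.0608), and with no scaling, at -0.93 (adjusted P = 0.0788). Zbp1, a sensor of Z-form nucleic acid, Oas2 and Oasl2 passed in neither, with -0.77 for Zbp1 without IL-2 (adjusted P = 0.058). With the block Oas2, which makes the activator of RNase L, was lower in both (-0.70, adjusted P = 0.0405, and -0.79, adjusted P = 0.0166). Tapbp (tapasin), which loads peptides on MHC class I, fell without IL-2 (-0.54, adjusted P = 0.0383), and the peptide transporter gene Tap1 differed by -0.39 (adjusted P = 0.206, and 0.0428 with the block). The Tapbp call was lost without TB IL-2nil replicate 1 or 2, TB+ IL-2nil replicate 1 or 2 or TB+ IL-2 replicate 3 (adjusted P = 0.0502 to 0.111). Both differences lay near the median of all genes in this comparison, which itself moved from -0.38 to -0.08 when the libraries were scaled by the median of ratios and to -0.78 with no scaling. Under the median of ratios the split of members was 8 higher and 7 lower with IL-2 and 9 and 10 without, under quantile normalization 6 and 8 with IL-2, and with no scaling 6 and 20 in cells without IL-2. Under the median of ratios Tapbp was at -0.14 (adjusted P = 0.564). The calls of Irf7, Dhx58 and Parp14 without IL-2 were lost with that scaling too, as were those of Dhx58, Trim30a, Xaf1 and Ifi35 with IL-2.

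Isg15 and Ifit1 were among the members higher with IL-2 both before and after PMA/I. Of the 39 genes, 6 were higher and 2 lower in TB IL-2 than in TB IL-2nil (17.3% and 22.3% of all genes), and 1 was more than 3-fold higher and 0 lower (4.69% and 2.73%). Between TB+ IL-2 and TB+ IL-2nil, 8 were higher and 0 lower (12.9% and 8.4%), and 2 of them more than 3-fold (3.21% higher and 0.41% lower of all genes). The median of the list was 0.36 before and 0.52 after PMA/I, where that of all genes was -0.13 and -0.04, and 30 of the 39 differences were above 0 in each. The list median before PMA/I was 0.08 without TB IL-2 replicate 1 and 0.55 without TB IL-2 replicate 3, and the one after it was 0.25 without TB+ IL-2 replicate 1. Without the pair of libraries they were 0.30 and 0.69. These 2 comparisons share no library, and 4 members, Isg15, Ifit1, Ifi35 and Eif2ak2, were higher in both, that is 4 of 6 and 4 of 8. Of all genes, 49.1% of those higher before PMA/I and 66.2% of those higher after it were higher in both. With the replicate number as a block the counts were 12 higher and 3 lower before PMA/I and 14 and 1 after it. Leaving out TB IL-2 replicate 2 left 5 calls before PMA/I in place of 8. After it, 5 were left without TB+ IL-2 replicate 3, TB+ IL-2nil replicate 1 or TB+ IL-2nil replicate 2, and without the pair of libraries 1, Cmpk2, in place of 8. Scaling by the median of ratios gave 7 higher and 1 lower after PMA/I. Whatever the P-value, all 3 libraries with IL-2 were above all 3 without for 9 members before PMA/I and 12 after it (22.8% and 18.9% of all genes). They were all below for 3 and 0 members (30.4% and 18.3% of all genes).

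**Figure D4:**
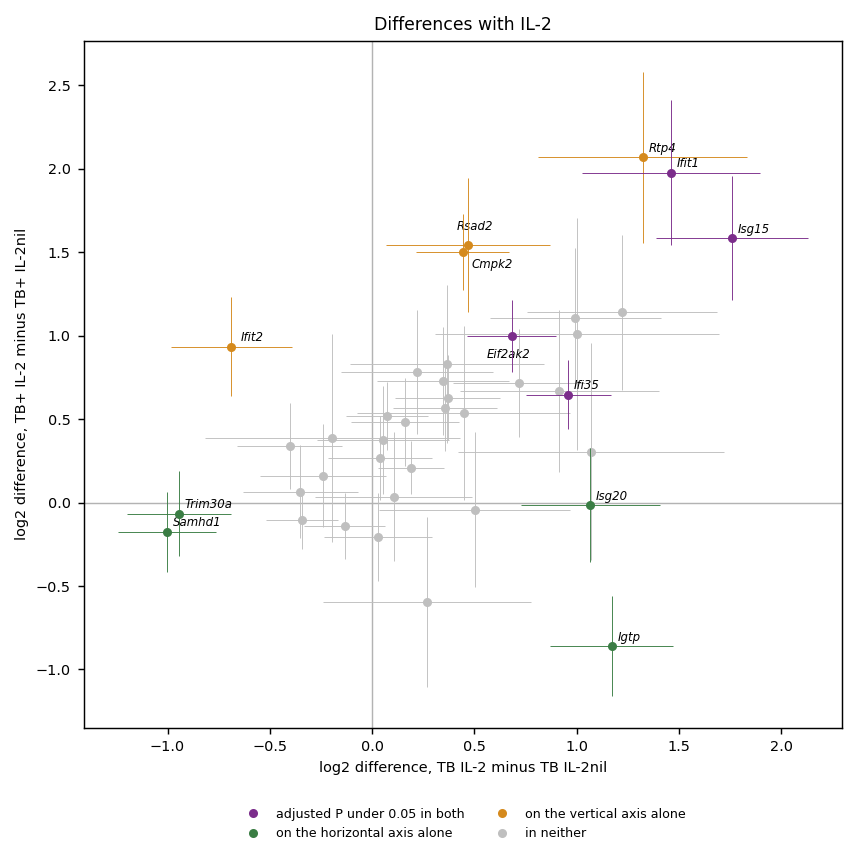
Log2 difference of each of the 39 members with against without IL-2, before PMA/I (horizontal) and after it (vertical), with bars of 1 SE; colour shows in which comparison the adjusted P was under 0.05. Isg15 and Ifit1 lie at the upper right, Igtp at the lower right, at 1.17 and -0.86, and Samhd1 and Trim30a at the left.

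Isg15 encodes the ubiquitin-like modifier of the interferon response. It was measured at 11.5, 19.6 and 8.34 TPM in TB IL-2 and 3.74, 1.92 and 3.48 TPM in TB IL-2nil, and at 13.6, 38.3 and 24.2 TPM in TB+ IL-2 and 5.93, 8.45 and 7.21 TPM in TB+ IL-2nil. In both states each library with IL-2 was above each one without. The difference was 1.76 ± 0.37 (3.39-fold, adjusted P = 0.00388) before PMA/I, and 1.84 (adjusted P = 0.0151) without the pair of libraries. After PMA/I it was 1.58 ± 0.37 (adjusted P = 0.0127), a call lost without the pair of libraries, at 1.56 (adjusted P = 0.0606), and without TB+ IL-2nil replicate 1, at 1.47 (adjusted P = 0.0503). PMA/I raised Isg15 without IL-2 by 1.04 ± 0.37 (adjusted P = 0.0303), and the difference with IL-2 was 0.86 ± 0.37 (adjusted P = 0.0933). The rise without IL-2 was lost without the pair of libraries, at 1.12 (adjusted P = 0.0612), and without TB IL-2nil replicate 2, at 0.82 (adjusted P = 0.11), TB+ IL-2nil replicate 2, at 0.93 (adjusted P = 0.0887), or TB+ IL-2nil replicate 3, at 1.03 (adjusted P = 0.0621).

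Ifit1, which binds RNA with foreign caps, had a like pattern at lower levels. It was at 5.33, 10.3 and 6.57 TPM in TB IL-2 and 2.61, 1.06 and 2.48 TPM in TB IL-2nil, and at 2.99, 12.4 and 11.8 TPM in TB+ IL-2 and 0.978, 0.964 and 1.88 TPM in TB+ IL-2nil. Groups with and without IL-2 did not overlap, although TB+ IL-2 replicate 1 was far below the other libraries of its group. The difference was 1.46 ± 0.44 (2.76-fold, adjusted P = 0.0207) before and 1.98 ± 0.44 (3.94-fold, adjusted P = 0.00954) after PMA/I. Without the pair of libraries it was 1.58 (adjusted P = 0.0363) and 1.7 (adjusted P = 0.0592). The first call was lost without TB IL-2 replicate 2, at 1.23 (adjusted P = 0.0803), or TB IL-2nil replicate 2, at 1.2 (adjusted P = 0.0776). Ifit1 and Ifit2 lie in 1 cluster on chromosome 19 with Ifit3 between them. The difference of Ifit2 with IL-2 was, before PMA/I, -0.69 ± 0.30, adjusted P = 0.0862, and 0.0425 with the block, and after it 0.93 ± 0.30, adjusted P = 0.045, a call that was lost in 16 of the 24 alternatives, among them the one without the pair of libraries, at 0.69 (adjusted P = 0.201). For single libraries, leaving out any 1 of the 12 but TB+ IL-2 replicate 1 and TB+ IL-2nil replicate 3 lost it (adjusted P = 0.0507 to 0.171).

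Rtp4, a chaperone-like protein with antiviral activity, was at 21.7, 15.2 and 7.14 TPM in TB IL-2 and 7.98, 2.66 and 4.8 TPM in TB IL-2nil, and at 18.5, 8.47 and 9.25 TPM in TB+ IL-2 and 4.85, 1.33 and 0.877 TPM in TB+ IL-2nil. The groups overlapped before PMA/I and not after it. The difference after PMA/I was 2.07 ± 0.51 (4.2-fold, adjusted P = 0.0162), the largest of the list in that comparison. It was lost without the pair of libraries, at 2.2 (adjusted P = 0.0559), without TB+ IL-2 replicate 1, at 1.74 (adjusted P = 0.0541), and without TB+ IL-2nil replicate 3, at 1.75 (adjusted P = 0.0526). Before PMA/I the difference was 1.32 ± 0.51 (adjusted P = 0.060, and 0.00336 with the block). Cmpk2 and Rsad2, the pair on chromosome 12, were both higher with IL-2 after PMA/I, by 1.5 ± 0.23 (adjusted P = 0.00144) and 1.54 ± 0.40 (adjusted P = 0.020). Cmpk2 kept its call without the pair of libraries, at 1.36 (adjusted P = 0.0144). Rsad2 did not, at 1.54 (adjusted P = 0.0732), nor without TB+ IL-2 replicate 1, at 1.46 (adjusted P = 0.0541), TB+ IL-2 replicate 3, at 1.54 (adjusted P = 0.060), or TB+ IL-2nil replicate 2, at 1.3 (adjusted P = 0.0607).

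Igtp, described above, was higher with IL-2 before PMA/I by 1.17 ± 0.30 (adjusted P = 0.0103) and, without the pair of libraries, by 1.22 (adjusted P = 0.0244). Its difference after PMA/I was -0.86 ± 0.30 (adjusted P = 0.0635), and with the block it was called lower with IL-2 (adjusted P = 0.0288), the one member to be called so there. Isg20 was higher with IL-2 before PMA/I by 1.07 ± 0.34 (adjusted P = 0.0285), with 21.5 TPM in the lowest TB IL-2 library and 21.2 TPM in the highest TB IL-2nil one, and differed by -0.02 ± 0.34 after it (adjusted P = 0.987). The Isg20 call was lost without the pair of libraries, at 0.98 (adjusted P = 0.0846), and without TB IL-2 replicate 1 or 2 or TB IL-2nil replicate 1 or 3 (adjusted P = 0.0762 to 0.101). Eif2ak2 was higher with IL-2 before PMA/I by 0.68 ± 0.22 (adjusted P = 0.028) and after it by 1.0 ± 0.22 (adjusted P = 0.00915). Neither call held without the pair of libraries, at 0.64 (adjusted P = 0.0897) and 0.92 (adjusted P = 0.0586), and the first did not hold without TB IL-2 replicate 1 or 2 or any replicate of TB IL-2nil (adjusted P = 0.0505 to 0.0974). Ifi35 was higher by 0.96 ± 0.21 (adjusted P = 0.00443) before and 0.65 ± 0.21 (adjusted P = 0.0472) after PMA/I. The latter call was lost in 17 of the 24 alternatives, among them without the pair of libraries, at 0.69 (adjusted P = 0.125), without any 1 of the 6 stimulated libraries (adjusted P = 0.0569 to 0.117), without TB IL-2 replicate 1 (0.055) and without TB IL-2nil replicate 2 or 3 (0.0525 and 0.0614).

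Samhd1 and Trim30a were the 2 members lower with IL-2, both before PMA/I. Samhd1 was at 269, 193 and 213 TPM in TB IL-2 and 477, 388 and 483 TPM in TB IL-2nil, a difference of -1.0 ± 0.24 (adjusted P = 0.00759). Trim30a differed by -0.94 ± 0.25 (adjusted P = 0.0133), and by -1.01 (adjusted P = 0.0308) without the pair of libraries, where Samhd1 gave -0.95 (adjusted P = 0.0368). The Trim30a call was lost without TB IL-2 replicate 3, at -0.75 (adjusted P = 0.0575). After PMA/I, Samhd1 and Trim30a differed by -0.17 and -0.07 (adjusted P = 0.648 and 0.886). Bst2 (tetherin), which holds budding virus at the cell surface, was at 82.6, 38 and 39.6 TPM in TB IL-2 and 31.6, 13.8 and 20.5 TPM in TB IL-2nil. Its 3 libraries with IL-2 were above the 3 without, as were those of 22.8% of all genes. The Bst2 difference of 1.22 ± 0.46 missed the threshold (adjusted P = 0.0564), but passed with the block (adjusted P = 0.000289). It did so after PMA/I as well (difference 1.14, adjusted P = 0.105 without and 0.000757 with the block). Gbp6, Usp18 and Oasl2 likewise passed with the block alone in both comparisons, with differences of 0.99, 0.92 and 1.0 before PMA/I (adjusted P = 0.0798, 0.157 and 0.271 without and 0.0060, 0.00629 and 0.0175 with it).

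With the block, members were compared within replicate numbers, and the numbers carried part of the spread. Replicate 1 was the highest of the 3 libraries in all 4 groups for 10 of the 39 members (Irf9, Oas2, Oasl2, Ifit3, Rsad2, Bst2, Rtp4, Gbp6, Irgm1 and Tap1), where 9.11% of all 12442 genes had this order. Replicate 3 was the lowest in all 4 groups for 7 members (Usp18, Isg20, Gbp2, Gbp7, Irgm1, Iigp1 and Parp14), an order that 5.19% of all genes had. The median deviation of the members from their group mean was 0.43 in TB IL-2 replicate 1 and 0.47 in TB+ IL-2 replicate 1, and -0.44 and -0.28 in replicate 3 of these groups, while the median of all genes was within 0.04 of 0 in every library. In the groups without IL-2 it was 0.18 and 0.10 in replicate 1, and -0.10 and -0.09 in replicate 3. The spread was wide enough in TB IL-2 that Oas2 read 5.70, 1.24 and 0.661 TPM and Oasl2 11.4, 3.33 and 1.36 TPM in the 3 replicates. Both listed markers of CD8 T cells were likewise highest in replicate 1 of all 4 groups, and their part in the spread of the members was not tested. Cd8a was at 13.6, 1.10 and 1.27 TPM in replicates 1, 2 and 3 of TB IL-2, 7.09, 2.01 and 4.30 TPM in TB IL-2nil, 12.3, 0.911 and 2.21 TPM in TB+ IL-2 and 6.88, 1.67 and 5.12 TPM in TB+ IL-2nil. Cd8b1 in replicate 1 was at 15.0 to 18.4 TPM against 5.82 to 13.4 TPM in the other libraries. The sum of Cd8a and Cd8b1 ran from 6.91 to 31.9 TPM in TB IL-2, 14 to 22.1 TPM in TB IL-2nil, 7.27 to 29.5 TPM in TB+ IL-2 and 8.64 to 22.0 TPM in TB+ IL-2nil. The labels give no batch.

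**Figure D5:**
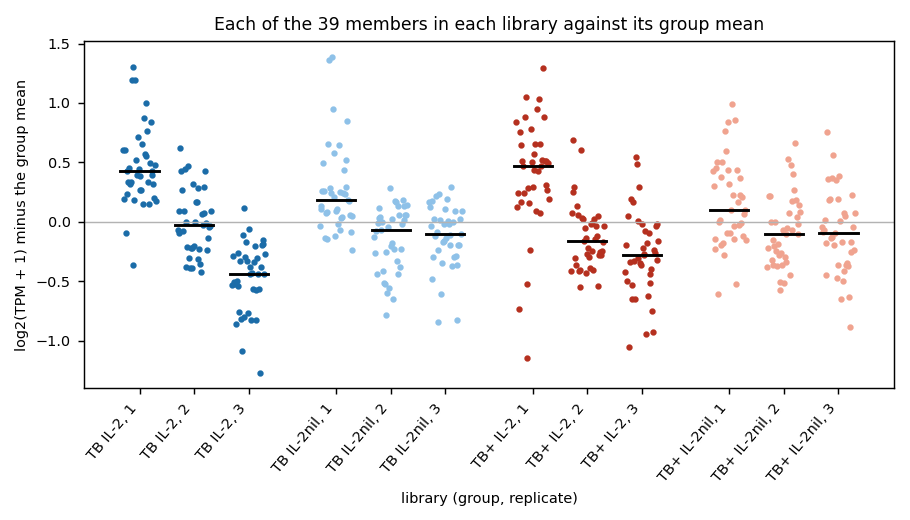
Log2(TPM + 1) of each of the 39 members in each library minus the mean of its group, with 1 point for each member and a black line at the median. Replicate 1 lies highest in every group and replicate 3 lowest in both groups with IL-2, with medians of 0.43 and 0.47 in replicate 1 of TB IL-2 and TB+ IL-2.

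The other genes of the pathway were read from 3 further lists. Of 11 interferon and interferon receptor genes, 6 were tested. Ifng, the gene for interferon-γ, went from 1.46, 3.86 and 4.14 TPM in TB IL-2 and 1.12, 0.718 and 2.23 TPM in TB IL-2nil to 1252, 3803 and 1230 TPM in TB+ IL-2 and 716, 1316 and 858 TPM in TB+ IL-2nil, a rise of 8.84 ± 0.46 with IL-2 (adjusted P = 3.3e-07) and 8.68 ± 0.46 without (adjusted P = 2.6e-07). Ifnb1 was listed at 0 in 11 libraries and at 1.64 TPM in TB+ IL-2 replicate 2, and Ifna1, Ifnl2 and Ifnl3 were listed at 0 in all 12. Ifna2 and Ifna4, also on the list, did not pass the filter. All 4 receptor chains fell with PMA/I in both settings, with differences of -1.48 (Ifnar1), -1.08 (Ifnar2), -1.88 (Ifngr1) and -1.64 (Ifngr2) with IL-2 and -2.09, -1.43, -2.32 and -1.81 without (adjusted P = 9.8e-05 to 0.0419). For comparison, 23.3% of all genes were lower with PMA/I in cells with IL-2 and 41.1% in cells without. With IL-2, 0 of the 6 were higher and 2 lower before PMA/I (Ifnar1, -1.03, and Ifnar2, -0.60), and none passed after it. The shares of all genes were 17.3% higher and 22.3% lower before PMA/I and 12.9% and 8.4% after it.

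Of 20 signalling and IRF genes, 18 were tested, and with PMA/I 3 were higher and 6 lower with IL-2 and 7 and 7 without. The shares of all genes higher and lower with PMA/I were 11.8% and 23.3% with IL-2 and 20.1% and 41.1% without. With IL-2 4 were higher and 6 lower before PMA/I (17.3% and 22.3% of all genes) and 0 and 4 after it (12.9% and 8.4%). Jak2, the kinase of the interferon-γ receptor, rose by 3.99 and 3.32, Irf4 by 4.92 and 6.33, and Irf8 by 3.15 and 6.36 (adjusted P = 0.000849 and 3.2e-06). In the interaction 4 of the 18 passed, all downwards: Irf8 (-3.21 ± 0.71), Socs1 (-3.96 ± 0.62), Socs3 (-2.45 ± 0.37) and the DNA sensor gene Mb21d1 (-2.2 ± 0.44). Among all genes, 1.57% passed upwards and 2.66% downwards. Socs1, an inhibitor of Jak kinases and itself a target of both interferon and IL-2, was at 228, 396 and 132 TPM in TB IL-2 and 63.8, 74.5 and 35.5 TPM in TB IL-2nil, and at 112, 69.7 and 91.6 TPM in TB+ IL-2 and 568, 232 and 311 TPM in TB+ IL-2nil. The 4 group means of Socs1 stood in the same order as those of Igtp, which had also passed downwards in the interaction. The share of all genes with this order was not counted, and a link between the 2 genes was not tested.

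Of 76 other interferon-stimulated genes, 75 were in the files and 69 were tested. With PMA/I 4 were higher and 24 lower with IL-2 and 5 and 33 without, with medians of -0.49 and -0.71. The shares of all genes were 11.8% and 23.3% with IL-2 and 20.1% and 41.1% without, with medians of -0.22 and -0.38. With IL-2 11 were higher and 16 lower before PMA/I and 12 and 3 after it, with medians of -0.20 and 0.02. The shares of all genes were 17.3% and 22.3% before PMA/I and 12.9% and 8.4% after it, with medians of -0.13 and -0.04. Cd274 (PD-L1) rose most with PMA/I (3.74 and 4.69). The immunoproteasome genes Psmb8 and Psmb9, with Cxcl10, Oas3, Ifitm3, Ifi30 and Lgals3bp, were among those higher with IL-2 in both states. Before PMA/I, however, more genes of this list were lower with IL-2 (16) than higher (11). Psmb9 was at 182, 151 and 152 TPM in TB IL-2 and 103, 118 and 86.7 TPM in TB IL-2nil and, after PMA/I, at 124, 112 and 114 TPM in TB+ IL-2 and 34, 43.2 and 42.3 TPM in TB+ IL-2nil. No group of 3 libraries overlapped the one it was compared with. The difference was 0.66 ± 0.16 (adjusted P = 0.00889) before and 1.53 ± 0.16 (adjusted P = 0.000234) after PMA/I. Slfn1, a gene of T cell quiescence, fell with PMA/I (-3.25 and -3.69).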

How the data were processed

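RNA was extracted from CD4 T blasts, depleted of ribosomal RNA and made into directional paired-end libraries. Per the labels and the study's methods, reads were trimmed with Trimmomatic 0.32, aligned to mm9 with HISAT2 2.1.0 and quantified with StringTie 1.3.3 on RefSeq gene models. The authors deposited 1 table of FPKM values per library, although the methods name TPM, and the absolute read depth is unknown. FPKM sums ran from 193815 to 420487 per library. The steps of the methods were followed: FPKM were rescaled to TPM, names over 1 TPM in at least 1 of 12 libraries were kept, and libraries were scaled to a common 75th percentile. The values in the study's table of differentially expressed genes were instead met after quantile normalization, which was run here as an alternative. Differences were tested on log2(TPM + 1) with limma 3.58.1 (R 4.3.3), in 1 fit of 4 groups with 8 residual degrees of freedom and Benjamini-Hochberg adjustment over all genes. The test was checked on simulated data, and the filter, the scaling and the pseudocount of 1 were varied. A gene passed at an adjusted P under 0.05, and a fold threshold of 3 was applied as well.

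Comparisons were made between groups with and without PMA/I, with and without IL-2, and for the interaction. The comparisons of PMA/I in cells with IL-2 and of IL-2 before PMA/I share the TB IL-2 libraries, and the other adjoining comparisons likewise share 1 group. Same-numbered libraries deviated together in all 18 pairs across groups (r = 0.101 to 0.531 over genes, after the placement of 2 libraries), a hint from the data since the labels give only numbers. The fit with the replicate number as a block was therefore run beside the main one. Members with a fold above 3 are given in full, other members by the test value. The 39 members, the other lists and the tests were chosen with earlier results of these data known. Promoter windows were matched by symbol to RefSeq (GRCm38.p6), and gene positions are from GENCODE M1 on mm9.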

Additional observations from a re-analysis of the deposited data

Results flagged for a closer look

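One result was marked because the effect of the same treatment differed between 2 groups by a test of the difference itself. For Igtp the log2 difference made by PMA/I was -0.33 in cells with IL-2 and 1.70 in cells without it, and the interaction was -2.03 ± 0.42 (adjusted P = 0.0295, limma). TB IL-2nil libraries were the lowest (67.0 to 107 TPM) and TB+ IL-2nil libraries mostly the highest (222 to 381 TPM). The call was lost when any 1 of 7 libraries was left out.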

How the results depend on the processing

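Of the 56 gene calls of the 5 comparisons, the replicate block lost 0, the pair of libraries left out lost 17, and the sample labels as given lost 53. None was reversed in any of the 24 alternatives (23 for the interaction, where a fit on 2 groups cannot be made). By the sample labels the numbers of members past the adjusted P were 0 for IL-2 before PMA/I, 0 for PMA/I with IL-2, 3 for PMA/I without IL-2, 0 for IL-2 after PMA/I and 0 for the interaction, in place of 8, 16, 23, 8 and 1. Without the pair of libraries they were 1 for IL-2 after PMA/I and 0 for the interaction, and with no scaling 3 for IL-2 before PMA/I, 8 for PMA/I with IL-2 and 0 for the interaction. With the replicate block, whose pairing rests on the data, they were 15 before PMA/I and 15 after it for IL-2 and 3 for the interaction, and the block changed no other count by over 1.5 times. The interaction gave 2 with a filter of over 1 TPM in 3 libraries and 2 with quantile normalization. With 1 library left out at a time, the counts ran from 5 to 10 for IL-2 before PMA/I, 11 to 16 and 19 to 25 for PMA/I with and without IL-2, 5 to 7 for IL-2 after PMA/I and 0 to 3 for the interaction. The calls that held in every alternative but the sample labels were 2 of 8, 8 of 16, 15 of 23, 1 of 8 and 0 of 1. The causes were not tested. Relative depth, inferred from the smallest steps of the values, differed 3.05-fold between libraries, so members under about 1 TPM are the least certain.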
